A study of Arabidopsis thaliana with 12 samples.

Results

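The leaf transcripts of the Arabidopsis thaliana triple mutant crwn1;4 pnet2_a were compared with those of wild type (WT, Col-0), with 3 RNA-seq libraries per genotype. The triple mutant carries knockouts of CRWN1 and CRWN4 together with a CRISPR mutation in PNET2_A, and its plants, like those of WT, were untreated. Of 32833 genes in the deposited table, 18372 were taken, each reaching 1 FPKM or more in 3 or more of these 6 libraries. FPKM counts the fragments of a gene relative to its length and to the mapped fragments of the library. At the edge of this rule, 222 genes had the third highest value between 1 and 1.1 FPKM and 234 genes just missed with a value between 0.9 and 1, and 10407 of the genes left out were listed at 0 in all 6 libraries. The mutants crwn1;4 pnet2_b (a CRISPR mutation in PNET2_B on the same double knockout) and crwn1;4 (the double knockout alone), with 3 libraries each, are used only to place single genes and lists. The 3 mutant genotypes are called the pnet2_a triple mutant, the pnet2_b triple mutant and the double mutant here. All 3 mutant genotypes share the CRWN1 and CRWN4 knockouts, so a difference between the pnet2_a triple mutant and WT covers 3 lesions at once. The number of independent lines is not stated for any genotype. Plant age is 3 weeks in the sample titles and 4 weeks in the extraction protocol. Whether replicates are separate plants is not stated, and the p-values then reflect only how far these libraries vary, which may be technical.

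CRWN proteins are coiled-coil proteins that line the inner face of the plant nuclear envelope, where they take the place of the animal lamins and help to set nuclear size and shape. PNET2 proteins are membrane proteins of the inner nuclear envelope. Plants that lack several CRWN proteins are dwarfed and are known for raised salicylic acid, the hormone that switches on defence against biotrophic pathogens through the receptor NPR1 and the marker genes PR1, PR2 and PR5.

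The targeted genes were read first. CRWN1 (LINC1 in the reference annotation, chromosome 1, 25151211 to 25156389, TAIR10.1) had 1.67, 1.47 and 1.88 FPKM in the pnet2_a triple mutant, against 11.6, 13.5 and 12.2 FPKM in WT. CRWN4 (LINC4, chromosome 5, 26311311 to 26316025) had 1.51, 1.505 and 1.65 FPKM in the pnet2_a triple mutant, against 6.53, 8.43 and 7.13 FPKM in WT. Each mutant library was far below each WT library for both genes, and signal was left in the mutant at both loci. The falls were -2.33 and -1.71 on the log2(FPKM + 1) scale (SE 0.124 and 0.151), with limma adjusted p-values of 6.05e-09 and 7.39e-07. CRWN4 overlaps the gene AT5G65780 on the same strand, so part of its value could come from that gene. PNET2_A was not assigned to a locus here, and its mutation was therefore not checked in the libraries. Across the genes kept, libraries of the same genotype correlated at 0.985 to 0.989 and libraries of different genotype at 0.932 to 0.945 (Pearson's r across genes on the log scale, given as a description). Library totals were 626248 to 640228 FPKM in the pnet2_a triple mutant and 641937 to 669711 FPKM in WT, and the read depth behind them is unknown.

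The rest of the nuclear envelope was little changed at the transcript level. Of 19 genes for lamina and envelope proteins, CRWN1 and CRWN4 fell, 2 rose and 15 did not pass the test. Over all genes kept, 25.9% rose and 10.9% fell. AT5G26770, which encodes an envelope-associated coiled-coil protein, had 6.17, 4.39 and 5.98 FPKM in the pnet2_a triple mutant, against 1.81, 2.48 and 4.07 FPKM in WT, a rise of 0.81 (limma adjusted p = 0.00291). SUN2, a SUN-domain protein that joins the inner to the outer envelope membrane, had 8.52, 9.697 and 6.71 FPKM in the pnet2_a triple mutant, against 5.89, 6.02 and 6.48 FPKM in WT, a rise of 0.37 (limma adjusted p = 0.0273). Neither gene's libraries overlapped between the genotypes, as in 47.0% of all genes kept. The SUN2 call was lost without WT replicate 1 or 2 or without replicate 1 or 2 of the pnet2_a triple mutant (log2 differences 0.265 to 0.361, limma adjusted p 0.0623 to 0.13), under median-ratio and quantile scaling (0.277 and 0.198, limma adjusted p = 0.0883 and 0.221) and on only the 2 genotypes (0.0554). CRWN2 (LINC2) and CRWN3 (LINC3), the family members still intact in this mutant, differed by -0.002 and 0.22 on the log2 scale and did not pass the test (limma adjusted p = 0.991 and 0.0904). The median over the 19 genes was 0.0635 as deposited and -0.0209 after median-ratio scaling, so its sign depends on the scaling.

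Rises were more frequent and larger than falls. In the pnet2_a triple mutant, 4756 genes (25.9% of the 18372) rose and 1998 (10.9%) fell, so that 36.8% passed limma's test at an adjusted p below 0.05. At least 2-fold rises were found for 1086 genes (5.91%) and at least 2-fold falls for 159 (0.865%). Past 4-fold there were 297 rises and 8 falls, past 8-fold 88 and 1, and past 16-fold 21 and 0. The typical called rise was 0.53 on the log2 scale and the typical called fall -0.46, given as medians. The 3 libraries of a genotype did not overlap those of the other for 47.0% of genes (32.2% higher and 14.8% lower in the pnet2_a triple mutant). Separation of the libraries in a single gene was therefore common.

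FPKM values are shares of a library, and the split between rises and falls moved with the scaling. As deposited, the median gene was 0.0893 higher in the pnet2_a triple mutant on the log2 scale, and 70.4% of the called genes were higher. Rescaling to a common total (TPM) gave 5409 higher and 1705 lower genes (76.0% higher). Median-ratio scaling gave 3495 higher and 3070 lower (53.2% higher), and quantile normalization gave 3012 higher and 3639 lower (45.3% higher), with a median gene at -0.0574. The genes called lower made up 37.2%, 37.9% and 36.7% of all FPKM in the pnet2_a triple mutant, against 47.6%, 46.5% and 46.2% in WT. Those called higher made up 22.6%, 22.5% and 23.1% in the pnet2_a triple mutant, against 14.1%, 14.5% and 13.8% in WT. Both groups were picked by their direction in these same libraries, so only the size of these shares is informative and not their direction. Falls were more frequent among abundant genes: 32.6% of genes at 100 FPKM or more were called lower, against 6.83% of genes below 2 FPKM. In leaf RNA of this kind, fewer cells of a type and less RNA per cell cannot be told apart.

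**Figure D1:**
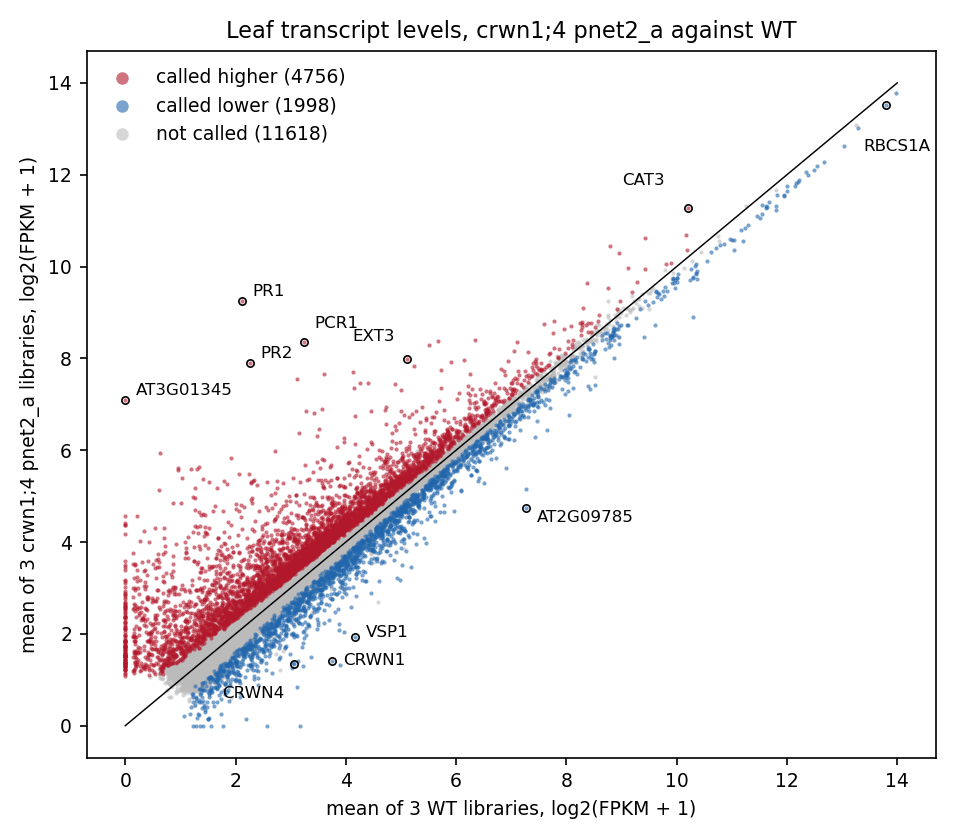
Log2(mean FPKM + 1), with the mean taken over the 3 crwn1;4 pnet2_a libraries (vertical axis) and over the 3 WT libraries (horizontal axis). Each of 18372 genes is 1 point, red where called higher (4756), blue where called lower (1998) and grey where not called (11618). The cloud of red points reaches far above the diagonal at low and middle WT levels. Of the genes at a mean of 100 FPKM or more, 32.6% are called lower and 20.9% higher, CAT3 among the latter.

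Salicylic acid marker genes were among the largest rises. PR1, a small secreted protein and the standard marker of the salicylic acid response, had 565, 549 and 712 FPKM in the pnet2_a triple mutant, against 7.797, 1.02 and 1.17 FPKM in WT. Every mutant library was far above every WT library, and WT replicate 1 stood above the other WT libraries. PR1 lies on chromosome 2 at 6241640 to 6242541, and its rise was 7.49 on the log2 scale (SE 0.452, limma adjusted p = 1.63e-08). PR2 (BGL2 in the reference), a beta-1,3-glucanase, had 208, 210.0 and 297 FPKM in the pnet2_a triple mutant, against 3.27, 3.79 and 4.27 FPKM in WT (rise 5.63). PR5, a thaumatin-like protein, had 179.5, 177 and 247 FPKM in the pnet2_a triple mutant, against 12.2, 9.98 and 11.4 FPKM in WT (rise 4.04). For these genes mutant replicate 3 was the highest, and no mutant value came near a WT value. Of the 11 pathogenesis-related genes kept, 10 rose, beside 25.9% of all genes kept. The median over the list was 4.04 against 0.0893 for all genes. The remaining gene was PDF1.2, a defensin driven by jasmonate and ethylene, with 9.66, 13.2 and 9.703 FPKM in the pnet2_a triple mutant, against 40.1, 13.1 and 12.2 FPKM in WT. Its WT replicate 1 stood high and the others lay in the range of the mutant, and the gene did not pass the test (limma adjusted p = 0.104). Summed, the list held 1935 to 2337 FPKM in pnet2_a triple mutant libraries and 138 to 221.1 FPKM in WT libraries.

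Other genes with large changes lay outside the PR list. CHI, a chitinase-family protein, had 51.05, 54.7 and 75.8 FPKM in the pnet2_a triple mutant, against 1.19, 0 and 0.474 FPKM in WT, 1 of which was listed at 0. PNP-A, a secreted natriuretic peptide, had 31.6, 35.2 and 35.6 FPKM in the pnet2_a triple mutant, against 0.706, 0.327 and 0.529 FPKM in WT (rise 4.54, limma adjusted p = 4.07e-08). TAT3, an aminotransferase, had 40.9, 39.4 and 43.9 FPKM in the pnet2_a triple mutant, against 1.14, 0.775 and 1.24 FPKM in WT (rise 4.37). All 3 genes were low in WT and far higher in every mutant library. Among the larger falls, ARR15, a cytokinin-induced response regulator, had 2.05, 0.998 and 1.72 FPKM in the pnet2_a triple mutant, against 5.71, 7.66 and 8.28 FPKM in WT (fall -1.67, limma adjusted p = 9.14e-06). SCPL13, a carboxypeptidase-like protein, had 10.1, 10.3 and 10.5 FPKM in the pnet2_a triple mutant, against 30.3, 32.6 and 31.5 FPKM in WT (fall -1.52, limma adjusted p = 6.05e-09). It averaged 10.3 FPKM in the pnet2_a triple mutant, 10.9 FPKM in the pnet2_b triple mutant and 34.2 FPKM in the double mutant. The libraries of SCPL13 agreed closely within each genotype. All genes of this paragraph were picked among those without overlap between the genotypes, so their separation was fixed by the choice.

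**Figure D2:**
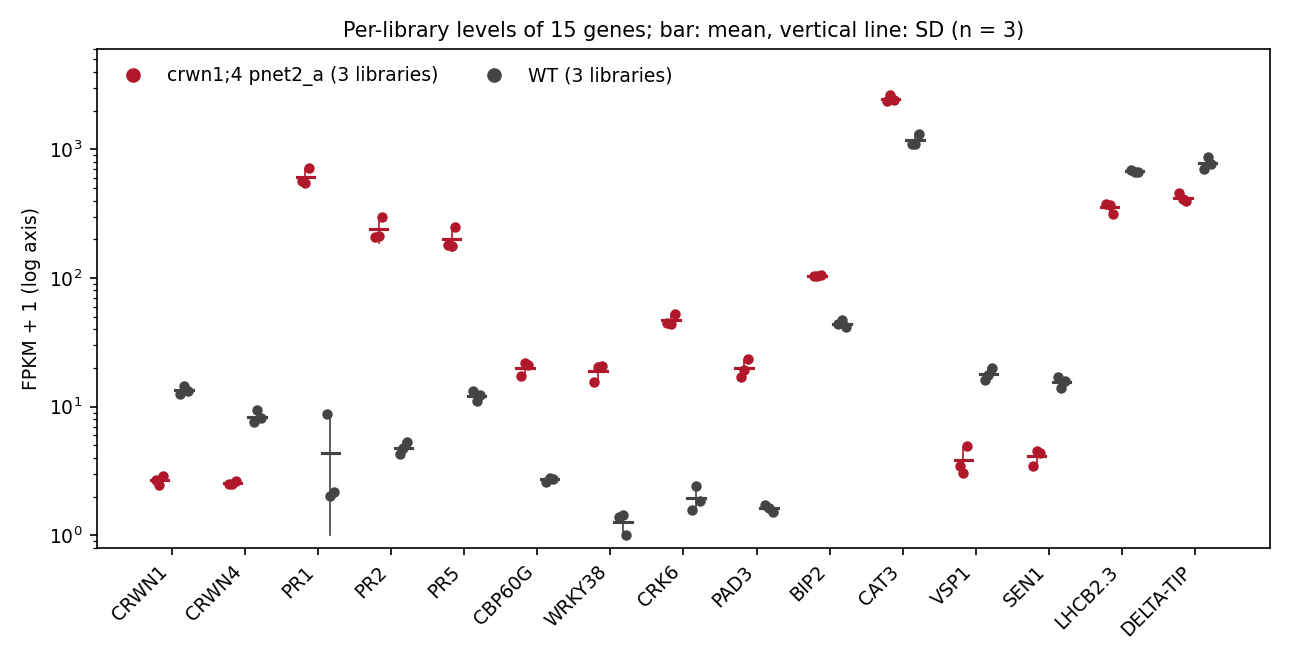
FPKM + 1 on a log axis for 15 genes, with each of the 3 crwn1;4 pnet2_a libraries in red and each of the 3 WT libraries in dark grey, the mean as a bar and the SD as a vertical line that stops at 0 FPKM. Defence genes such as PR1, CRK6 and PAD3 are high in every mutant library, CRWN1, CRWN4, VSP1 and SEN1 are low in every mutant library, and the genotypes do not overlap in any of the 15 genes. Some of these genes were picked among those without overlap, which held for 47.0% of all genes kept.

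The machinery that makes and reads salicylic acid was raised from the regulators to the receptors. Of 16 genes kept, 13 rose, 1 fell and 2 did not pass the test (median 1.69), beside 25.9% higher and 10.9% lower over all genes kept. CBP60G and SARD1 encode the transcription factors that switch on the synthesis pathway. CBP60G had 16.2, 20.8 and 20.1 FPKM in the pnet2_a triple mutant, against 1.6, 1.81 and 1.74 FPKM in WT (rise 2.88, SE 0.123, limma adjusted p = 1.41e-09). SARD1 had 28.5, 31.2 and 27.9 FPKM in the pnet2_a triple mutant, against 3.71, 3.32 and 4.62 FPKM in WT. Both regulators stood several-fold above WT in every mutant library. Isochorismate synthase 1 (EDS16, also called ICS1), the plastid enzyme of the main route to salicylic acid, averaged 18.01 ± 0.999 FPKM in the pnet2_a triple mutant and 4.06 ± 0.334 FPKM in WT (SD, n = 3 each; rise 1.91). The plastid exporter EDS5 and the conjugating enzyme PBS3, which act after it, rose by 2.102 and 1.805. ICS2, the second isochorismate synthase, went the other way, with 1.28, 1.04 and 0.895 FPKM in the pnet2_a triple mutant, against 2.01, 1.605 and 2.06 FPKM in WT (fall -0.48, limma adjusted p = 0.0296). PAL1, of the phenylalanine route, and EPS1, which acts after PBS3, did not pass the test (log2 differences 0.18 and -0.06).

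The receptors of salicylic acid and the proteins that act with them also rose. NPR1, the coactivator, had 20.7, 22.8 and 24.4 FPKM in the pnet2_a triple mutant, against 14.2, 13.4 and 13.7 FPKM in WT, a rise of 0.68. The repressing receptors NPR3 and NPR4 rose by 1.25 and 0.96. NIMIN1 and NIMIN-2, which bind NPR1 and hold it back, rose by 3.19 and 2.45. The lipase-like partners EDS1, PAD4 and SAG101, which relay signals from immune receptors, rose by 1.91, 1.42 and 1.57. All of these genes passed limma's test and none had overlapping genotypes, which held for 47.0% of all genes kept. All 4 genes kept for enzymes that inactivate salicylic acid rose as deposited, and 3 of the 4 under median-ratio or quantile scaling. The call of UGT74F2 (rise 0.41, limma adjusted p = 0.0338) was lost under these scalings (0.314 and 0.245, limma adjusted p = 0.106 and 0.213) and without WT replicate 2 or 3 or mutant replicate 1 or 2 (limma adjusted p 0.0623 to 0.148). The hydroxylase DMR6 had 96.8, 114 and 122 FPKM in the pnet2_a triple mutant, against 10.5, 9.195 and 9.63 FPKM in WT (rise 3.37, limma adjusted p = 5.3e-09). Its relative DLO1 (AT4G10500) had 19.7, 19.3 and 29.1 FPKM in the pnet2_a triple mutant, while WT was listed at 0 in 2 libraries and at 0.490 FPKM in the third. Of 5 kept genes for systemic resistance, only some of them for its mobile signal N-hydroxypipecolic acid, 4 rose, beside 25.9% of all genes kept. AZI1 and MES9 were among the 4, as was ALD1, the enzyme of the first step to N-hydroxypipecolic acid. ALD1 was listed at 0 in WT and had 1.15, 1.63 and 1.21 FPKM in the pnet2_a triple mutant.

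The pnet2_b triple mutant and the double mutant show where these levels stand. They share the pnet2_a triple mutant libraries with the comparison above, so their values are given side by side. PR1 averaged 609 FPKM in the pnet2_a triple mutant, 662 FPKM in the pnet2_b triple mutant and 44.7 FPKM in the double mutant. The double mutant libraries of PR1 varied, at 39.5, 24.3 and 70.3 FPKM, with replicate 3 the highest. EDS16 averaged 18.01 FPKM in the pnet2_a triple mutant, 31.2 FPKM in the pnet2_b triple mutant and 6.77 FPKM in the double mutant. PBS3 averaged 11.2 FPKM in the pnet2_a triple mutant, 20.7 FPKM in the pnet2_b triple mutant and 3.74 FPKM in the double mutant. It was lower in the pnet2_a triple mutant than in the pnet2_b triple mutant by -0.84 on the log2 scale (limma adjusted p = 0.00298). Over all 18372 genes, 4324 (23.5%) were called higher and 1748 (9.51%) lower in the pnet2_a triple mutant than in the double mutant. Against the pnet2_b triple mutant, 145 (0.789%) were called higher and 411 (2.24%) lower. Of the 16 salicylic acid synthesis and regulator genes, 14 were called higher and 1 lower than in the double mutant, and 0 higher and 4 lower than in the pnet2_b triple mutant.

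Immune receptors rose across families. Intracellular receptors of the NLR class detect pathogen effectors. Of 17 kept, 16 rose (median 0.69), beside 25.9% of all genes kept. RRS1 did not pass the test (log2 difference 0.18, limma adjusted p = 0.291). The number higher was 15 under median-ratio scaling and 14 under quantile normalization. The helper receptors, which work downstream of many others, rose by 1.495 (ADR1), 1.38 (ADR1-L2) and 1.21 (ADR1-L1). ADR1 had 7.58, 7.93 and 7.62 FPKM in the pnet2_a triple mutant, against 1.98, 2.38 and 1.93 FPKM in WT. ZAR1, which forms the resistosome, had 67.3, 66.1 and 63.4 FPKM in the pnet2_a triple mutant, against 29.2, 27.9 and 24.5 FPKM in WT (rise 1.24). Each of these mutant libraries held over 2 times the level of any WT library. SNC1, RPP4 and RPP5, neighbours in a receptor cluster on chromosome 4, rose by 0.62, 0.46 and 0.46. These are near-identical copies, and how reads that fit several copies were counted is not given in the sources used here.

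Of 15 genes for surface receptors and early signalling, 12 rose (median 0.88), beside 25.9% of all genes kept. SOBIR1, the adaptor kinase of receptor-like proteins, had 172, 171 and 180.0 FPKM in the pnet2_a triple mutant, against 17.9, 21.1 and 15.6 FPKM in WT (rise 3.202, SE 0.169, limma adjusted p = 6.02e-09). RLP23, a receptor-like protein that signals with SOBIR1, had 25.6, 27.8 and 30.4 FPKM in the pnet2_a triple mutant, against 1.17, 0.616 and 0.649 FPKM in WT (rise 4.01). Both genes were far higher in each mutant library than in any WT library. The receptors for flagellin (FLS2), elongation factor Tu (EFR) and plant elicitor peptide (PEPR1) did not pass the test, with log2 differences of -0.06, 0.24 and 0.28. FRK1, a kinase gene induced by such receptors, had 4.71, 6.13 and 7.15 FPKM in the pnet2_a triple mutant, and WT was listed at 0 in 2 libraries and at 0.309 FPKM in the third. The kinases MPK3, MKK4 and BIK1 and the oxidase RBOHD rose by 1.25, 1.07, 0.89 and 0.88, and MPK6 by 0.25 (limma adjusted p = 0.04095).

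Cysteine-rich receptor-like kinases (CRKs), a plant family of membrane kinases with many stress-induced members, had one of the steepest shifts among the lists. Of 17 kept, 15 rose, CRK21 fell and CRK22 did not pass the test (median 2.25), beside rises in 25.9% of all genes kept. CRK6 had 43.8, 42.9 and 51.9 FPKM in the pnet2_a triple mutant, against 0.582, 1.41 and 0.859 FPKM in WT (rise 4.61, SE 0.225, limma adjusted p = 3.51e-09). ARCK1 had 46.2, 48.4 and 46.9 FPKM in the pnet2_a triple mutant, against 1.45, 1.24 and 1.701 FPKM in WT (rise 4.29). CRK21 had 17.1, 16.3 and 15.8 FPKM in the pnet2_a triple mutant, against 25.9, 23.1 and 23.9 FPKM in WT (fall -0.54). The genotypes did not overlap in any of these genes, as in 47.0% of all genes kept. Many CRK genes stand side by side on chromosome 4, and 11 neighbouring genes from CRK5 to CRK15 (12117491 to 12160279) each rose at least 2-fold with no uncalled gene kept between them. This was the longest such run in the genome, and it was looked for after the values were seen. Over all 18372 genes, the 1086 rises of at least 2-fold formed 30 runs of at least 3 neighbours, which held 119 genes, and 7 runs of at least 5.

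**Figure D3:**
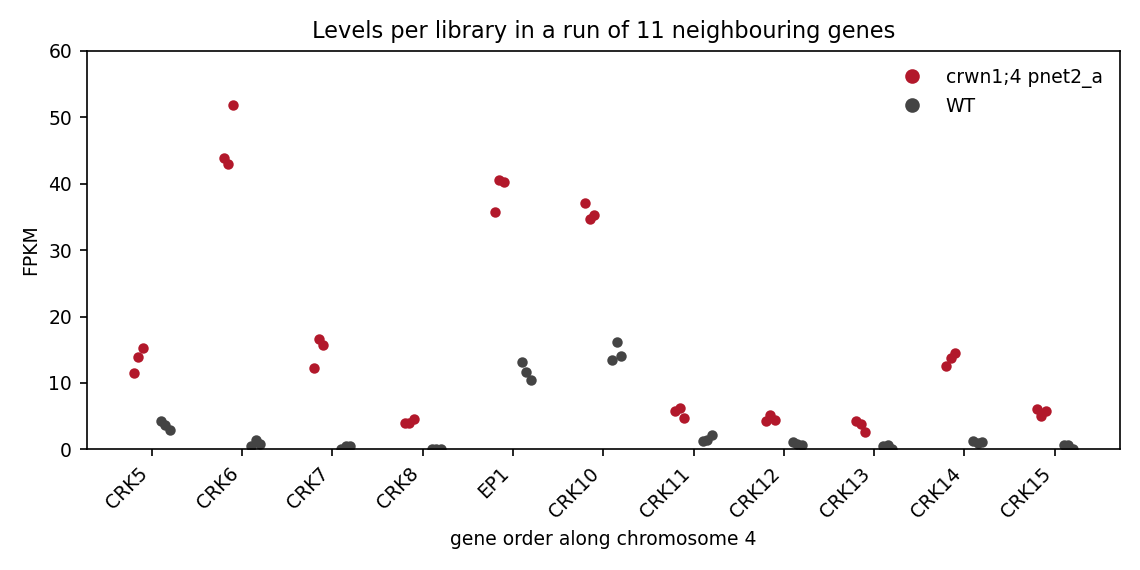
FPKM of 11 neighbouring genes in their order along chromosome 4, with each of the 3 crwn1;4 pnet2_a libraries in red and each of the 3 WT libraries in dark grey. CRK6, EP1 and CRK10 reach the highest mutant levels, CRK8 is at 0 in each WT library, and in every gene the 3 mutant libraries lie above the 3 WT libraries.

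WRKY factors bind the W-box, so the sequence upstream of these kinases was read. The W-box was searched as TTGACC or TTGACT on both strands in the 250 bases before each gene's start, in the TAIR10.1 assembly with RefSeq gene starts. Of the 11 genes in the run, 7 held at least 1 match and 5 at least 2. The windows shown were picked for at least 2 matches and no overlap with another gene, and the share of all windows with at least 2 was not counted. The windows of CRK5 (chr4:12120221-12120470, minus strand), CRK6 (chr4:12121119-12121368, plus strand), CRK11 (chr4:12143859-12144108, minus strand) and CRK14 (chr4:12156882-12157131, minus strand) overlap no other gene and have 3, 2, 4 and 2 matches. They are shown 5′ to 3′ on the gene's strand to let the spacing of the matches be seen, with matches on either strand in capitals.
CRK5: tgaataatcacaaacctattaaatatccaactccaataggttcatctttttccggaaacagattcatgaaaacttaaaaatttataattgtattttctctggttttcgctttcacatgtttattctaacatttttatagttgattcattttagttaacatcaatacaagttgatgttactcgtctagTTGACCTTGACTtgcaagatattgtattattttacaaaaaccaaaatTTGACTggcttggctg
CRK6: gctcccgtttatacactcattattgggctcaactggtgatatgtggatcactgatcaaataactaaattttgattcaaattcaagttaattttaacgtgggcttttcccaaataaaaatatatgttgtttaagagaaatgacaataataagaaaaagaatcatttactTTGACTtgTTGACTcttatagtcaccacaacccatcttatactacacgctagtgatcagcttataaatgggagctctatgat
CRK11: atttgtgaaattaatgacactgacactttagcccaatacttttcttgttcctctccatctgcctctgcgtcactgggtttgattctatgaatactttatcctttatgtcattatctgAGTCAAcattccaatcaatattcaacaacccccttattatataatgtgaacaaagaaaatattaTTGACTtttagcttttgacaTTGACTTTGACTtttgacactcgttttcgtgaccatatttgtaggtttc
CRK14: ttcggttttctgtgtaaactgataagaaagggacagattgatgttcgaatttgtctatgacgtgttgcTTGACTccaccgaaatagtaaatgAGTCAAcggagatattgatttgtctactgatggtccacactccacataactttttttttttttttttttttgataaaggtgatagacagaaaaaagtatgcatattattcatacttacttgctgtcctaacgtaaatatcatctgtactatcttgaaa
In CRK5 and CRK6 a pair of matches stands close together, starting 63 and 57 bases before the gene start in CRK5 and 82 and 74 bases before it in CRK6. In CRK11 the nearest pair starts 49 and 43 bases before the start, and in CRK14 the matches start 182 and 158 bases before it. A match is a description of these letters and not a bound site.

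Across all 17353 kept protein-coding genes with a window, 28.0% held a W-box match. The share was 44.9% among the 1034 genes that rose at least 2-fold, 32.1% among those that rose less, 26.2% among uncalled genes and 24.4% among the 131 that fell at least 2-fold. Of the CRK list, 10 of 17 windows held a match, and of the pathogenesis-related list 1 of 11. The window of PR1 held 0 matches. The motif TGACG, the core bound by TGA factors, the partners of NPR1, was present in 19.3% of all windows, in 26.2% of those of genes that rose at least 2-fold and in 15.3% of those that fell at least 2-fold. It was also present in 33.3% of antenna windows and 30.4% of photosystem windows, lists whose genes mostly fell as deposited. The I-box GATAAG, known from light-regulated genes, was present in 12.6% of all windows and 23.7% of those of genes that fell at least 2-fold, in 34.8% of photosystem windows and 22.2% of antenna windows, but also in 44.4% of the windows of the WRKY list, whose genes rose with 1 exception. The G-box CACGTG was present in 7.25% of all windows, in 6.77% for genes that rose at least 2-fold and 4.58% for those that fell at least 2-fold. It was present in 6 of 17 windows of the folding genes of the endoplasmic reticulum, but also in 22.2% of antenna and 13.0% of photosystem windows. The letters TGAC occur in both TGACG and the W-box, so single matches can overlap.

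**Figure D4:**
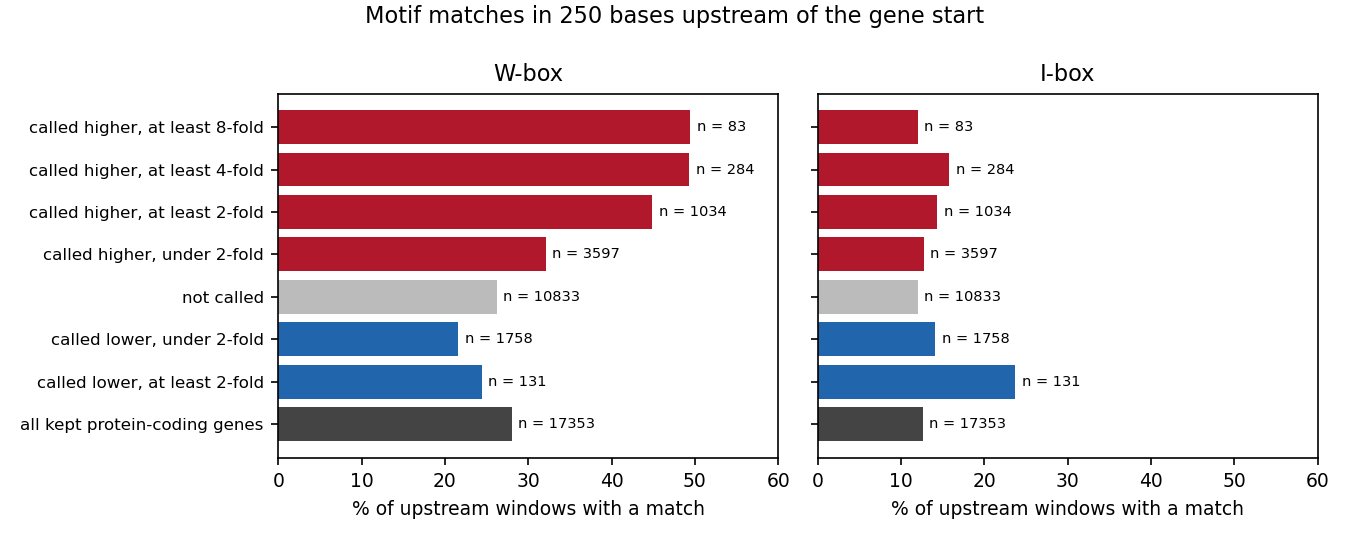
Percentage of 250-base upstream windows with a W-box match (left) and with an I-box match (right), by how the gene was called in crwn1;4 pnet2_a against WT, with the number of genes beside each bar. Each larger fold class lies within the smaller fold class of the same direction, and the W-box share is 49.4% at 8-fold and 28.0% over all genes, while the I-box share is highest, at 23.7%, among genes that fell at least 2-fold.

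Of 18 WRKY factor genes kept, 17 rose (median 2.40), beside 25.9% of all genes kept. WRKY38, which responds to salicylic acid, had 14.6, 19.3 and 19.8 FPKM in the pnet2_a triple mutant, against 0.388, 0.428 and 0 FPKM in WT (rise 3.9, limma adjusted p = 1.9e-09). WRKY70, a link between the salicylic acid and jasmonate responses, was the most abundant, with 109.7, 119 and 119 FPKM in the pnet2_a triple mutant, against 26.3, 26.1 and 23.3 FPKM in WT (rise 2.15). WRKY33, needed for camalexin, rose by 2.38, WRKY46 by 3.42 and WRKY53 by 3.08. WRKY30 and WRKY62 were listed at 0 in all 3 WT libraries and had 4.103, 3.13 and 4.04 FPKM and 6.599, 6.11 and 6.28 FPKM in the pnet2_a triple mutant. Only WRKY11 of those kept did not pass the test (log2 difference 0.302, limma adjusted p = 0.0615). The summed level of the list was 416.5 to 473 FPKM in pnet2_a triple mutant libraries and 86.4 to 96.1 FPKM in WT libraries.

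Antimicrobial metabolism divided by branch. Camalexin, the indole phytoalexin of Arabidopsis, had 9 of 10 genes raised (median 1.15), and PAD3, its last enzyme, had 15.9, 18.3 and 22.4 FPKM in the pnet2_a triple mutant, against 0.722, 0.635 and 0.527 FPKM in WT (rise 3.6, limma adjusted p = 1.8e-09). The glutathione transferases GSTF6 and GSTF7 rose by 3.57 and 3.57, and as close copies they may share reads. Of the 10 glutathione transferases kept in a list of their own, 5 rose and 2 fell, beside 25.9% and 10.9% of all genes kept. Indole glucosinolates had 8 of 10 genes raised and 1 lowered (median 0.69). MYB51, an activator of that branch, had 11.8, 12.7 and 13.5 FPKM in the pnet2_a triple mutant, against 2.43, 2.48 and 3.78 FPKM in WT (rise 1.83). MYB34, another activator of the same branch, had 5.31, 6.55 and 5.94 FPKM in the pnet2_a triple mutant, against 9.41, 10.4 and 11.6 FPKM in WT (fall -0.73, limma adjusted p = 0.000139). These related factors thus stood on opposite sides, without overlap between genotypes in either, as in 47.0% of all genes kept. The enzyme CYP83B1 rose by 1.41. Aliphatic glucosinolates, made from methionine, had 1 of 16 genes raised, 6 lowered and 9 uncalled (median -0.19), and the number lowered was 4 with TPM and 10 with median-ratio or quantile scaling. MAM1, which lengthens the methionine chain, had 141, 118 and 132 FPKM in the pnet2_a triple mutant, against 162, 178 and 167 FPKM in WT (fall -0.37, limma adjusted p = 0.01296). MAM1 was not called without mutant replicate 2 (-0.301, limma adjusted p = 0.0641).

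Cell death and senescence genes followed the defence genes in direction, with 13 of 16 raised and 1 lowered (median 1.09). Over all genes kept, 25.9% rose and 10.9% fell. SAG13, a marker of early senescence, had 41.3, 48.9 and 55.7 FPKM in the pnet2_a triple mutant, against 1.81, 0.519 and 2.27 FPKM in WT (rise 4.36). SAG12, the protease that marks natural leaf senescence, was listed at 0 in WT and had 2.53, 8.07 and 3.01 FPKM in the pnet2_a triple mutant, with replicate 2 above the others. ACD6, a membrane protein that promotes cell death with salicylic acid, had 159, 172 and 159 FPKM in the pnet2_a triple mutant, against 64.8, 48.3 and 42.6 FPKM in WT (rise 1.66). SEN1, a gene induced by darkness and in senescing leaves, was the exception. It had 2.44, 3.496 and 3.37 FPKM in the pnet2_a triple mutant, against 16.1, 12.97 and 14.8 FPKM in WT (fall -1.94, SE 0.123, limma adjusted p = 2.79e-08). SEN1 averaged 3.104 FPKM in the pnet2_a triple mutant, 7.37 FPKM in the pnet2_b triple mutant and 19.9 FPKM in the double mutant.

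Jasmonate genes were mixed: of 16 kept, 9 rose, 2 fell and 5 did not pass the test (median 0.47), beside 25.9% higher and 10.9% lower over all genes kept. The synthesis enzymes LOX2, LOX3, LOX4, AOC1, AOC2 and OPR3 rose by 0.57 to 1.53. LOX2, a plastid lipoxygenase, had 274, 281 and 304 FPKM in the pnet2_a triple mutant, against 159.6, 118 and 118 FPKM in WT (rise 1.12). The repressor JAZ1 and the central factor MYC2 rose by 1.52 and 0.97. The vegetative storage proteins, which respond to MYC2 in wounded leaves, were the genes that fell. VSP1 had 2.46, 2.04 and 3.94 FPKM in the pnet2_a triple mutant, against 15.2, 16.6 and 19.02 FPKM in WT (fall -2.26, SE 0.363, limma adjusted p = 0.000212). VSP2 had 5.53, 6.42 and 7.45 FPKM in the pnet2_a triple mutant, against 32.99, 11.8 and 17.9 FPKM in WT (fall -1.45, limma adjusted p = 0.0198). VSP2 was highest in WT replicate 1, and it no longer passed without that library (log2 difference -1.07, limma adjusted p = 0.0962) or without replicate 1 of the pnet2_a triple mutant (-1.35, 0.0648). VSP1 averaged 2.81 FPKM in the pnet2_a triple mutant, 29.8 FPKM in the pnet2_b triple mutant and 17.7 FPKM in the double mutant, and it was called lower than in either of these mutants (limma adjusted p = 0.00111 and 0.000293).

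Protein folding in the endoplasmic reticulum rose without exception, in 17 of 17 genes kept (median 0.94), beside 25.9% of all genes kept. The count for this list was also 17 under TPM, median-ratio and quantile scaling. BIP2, a luminal HSP70 chaperone, had 103, 103 and 104 FPKM in the pnet2_a triple mutant, against 42.6, 45.7 and 40.5 FPKM in WT (rise 1.25, SE 0.0794, limma adjusted p = 2.74e-08). The stress-induced form BIP3 had 7.501, 5.57 and 7.85 FPKM in the pnet2_a triple mutant, and WT was listed at 0 in 2 libraries and at 0.308 FPKM in the third. CRT3, a calreticulin needed to fold immune receptors, had 114, 118 and 131 FPKM in the pnet2_a triple mutant, against 27.3, 26.9 and 22.2 FPKM in WT (rise 2.21). Both chaperone genes and CRT3 were separated by a wide gap from WT. BZIP60 and BZIP28, which switch on these genes, rose by 1.49 and 0.56, and IRE1A, which splices the BZIP60 message, by 0.63. The list summed to 1187 to 1270 FPKM in pnet2_a triple mutant libraries and 543.1 to 614.7 FPKM in WT libraries. BIP2 averaged 103 FPKM in the pnet2_a triple mutant, 142 FPKM in the pnet2_b triple mutant and 51.4 FPKM in the double mutant, and 5 of the 17 genes were called lower in the pnet2_a triple mutant than in the pnet2_b triple mutant.

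Cytosolic heat shock genes changed less, with 5 of 8 raised (median 0.40), beside 25.9% of all genes kept. HSP90.1 rose by 1.31, while the thermotolerance gene HSP101 had a log2 difference of -0.09 and did not pass the test. Of 11 genes for oxidative and mitochondrial stress, 8 rose (median 1.33). AOX1A, the alternative oxidase that relieves the respiratory chain, had 50.8, 54.3 and 51.6 FPKM in the pnet2_a triple mutant, against 15.2, 15.9 and 15.8 FPKM in WT (rise 1.68, limma adjusted p = 1.14e-09). CAT3, a peroxisomal catalase, had the largest rise of any gene in mean FPKM, with 2393, 2642 and 2414 FPKM in the pnet2_a triple mutant, against 1108, 1106 and 1326 FPKM in WT (rise 1.08). The other catalases CAT1 and CAT2 did not pass the test, with log2 differences of -0.06 and -0.16. The zinc finger factors STZ and RHL41, both early stress factors, rose by 2.91 and 3.04.

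Of 12 genes of the DNA damage response, 7 rose (median 0.61), beside 25.9% of all genes kept. SOG1, the plant factor that takes the role of animal p53, had 7.67, 7.31 and 6.78 FPKM in the pnet2_a triple mutant, against 4.76, 3.68 and 4.36 FPKM in WT (rise 0.65). PARP2, a poly(ADP-ribose) polymerase, had 7.98, 7.28 and 6.69 FPKM in the pnet2_a triple mutant, against 1.802, 1.42 and 2.74 FPKM in WT (rise 1.498, limma adjusted p = 3.3e-06). The cell cycle inhibitor SMR7 (AT3G27630) had 4.16, 4.36 and 3.35 FPKM in the pnet2_a triple mutant, and WT was listed at 0 in 2 libraries and at 0.665 FPKM in the third. The repair gene BRCA1 had a log2 difference of 0.74. The kinase gene ATM and the checkpoint kinase gene WEE1 did not pass the test (-0.18 and 0.01). Among 18 genes of DNA replication and the cell cycle, the helicase subunit gene MCM4 rose by 0.33, the cell cycle inhibitor gene SIM fell by 0.45 and 16 did not pass (median -0.0092). MCM4 was not called without WT replicate 1 or 3 or mutant replicate 2 or 3, nor SIM without WT replicate 2 or 3 or mutant replicate 1 or 3 (limma adjusted p 0.059 to 0.104). Under median-ratio and quantile scaling MCM4 was not called either (0.241 and 0.161, limma adjusted p = 0.108 and 0.261), and 0 of the 18 genes were higher.

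Photosynthesis genes were mostly lower in the pnet2_a triple mutant, beside falls in 10.9% of all genes kept and 32.6% of those at 100 FPKM or more. In the antenna, photosystem, Calvin cycle, chlorophyll and greening lists no kept gene rose as deposited. Of 18 light-harvesting antenna genes kept, 16 fell (median -0.35), and LHCB2.3 did most, with 374, 371 and 316 FPKM in the pnet2_a triple mutant, against 694, 667 and 669 FPKM in WT (fall -0.94, SE 0.0696, limma adjusted p = 1.23e-07). Of 23 photosystem and electron transport genes, 21 fell (median -0.37), among them ferredoxin FED A, with 1432, 1601 and 1474 FPKM in the pnet2_a triple mutant, against 2414, 2300.0 and 2382 FPKM in WT (fall -0.66). Both genes were lower in each mutant library than in each WT library. Chlorophyll synthesis had 10 of 13 genes lowered (median -0.23), including CRD1, a cyclase of the pathway, with 996, 958 and 915 FPKM in the pnet2_a triple mutant, against 1351, 1335 and 1255 FPKM in WT (fall -0.46). Of 17 Calvin cycle and photorespiration genes, 8 fell (median -0.14), with the Rubisco small subunit gene RBCS3B at 6248, 6599 and 5973 FPKM in the pnet2_a triple mutant, against 8397, 8307 and 8615 FPKM in WT. RBCS and antenna genes are close copies, so single members are less certain than the lists. Of 8 greening regulators, 3 fell, and GLK2, an activator of antenna and chlorophyll genes, had 51.2, 44.8 and 45.3 FPKM in the pnet2_a triple mutant, against 81.7, 72.4 and 65.6 FPKM in WT (fall -0.62). Its partner GLK1 (GPRI1) had 137, 137 and 128 FPKM in the pnet2_a triple mutant, against 127, 109 and 118 FPKM in WT, and did not pass the test (log2 difference 0.18, limma adjusted p = 0.0676); it was called higher with TPM (0.225, 0.0304), without WT replicate 1 (0.236, 0.0335) and without replicate 3 of the pnet2_b triple mutant (0.182, 0.0453).

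The falls of photosynthesis genes were small per gene, and the number called moved with how libraries were scaled. Antenna genes together held 66700 to 71460 FPKM in pnet2_a triple mutant libraries and 81930 to 86210 FPKM in WT libraries, which is 10.5% to 11.2% of all FPKM in the mutant and 12.5% to 13.4% in WT. With TPM 16 antenna genes were lower and with median-ratio scaling 17, but with quantile normalization 2 were lower and 1 was higher. Photosystem genes were lower in 21, 21 and 9 cases under these scalings. Quantile normalization gives each rank the same value in every library, so it cannot show a fall of genes that keep the top ranks. RBCS1A, RBCS3B, CAB1 and CAB3 stood at a log2 difference of 0.0 under it. Its counts therefore do not decide whether these abundant genes fell. Chlorophyll synthesis genes were lower in 6, 12 and 10 of 13 cases under TPM, median-ratio and quantile scaling. For the Calvin cycle list TPM gave 2 higher and 7 lower genes, median-ratio scaling 0 and 11, and quantile normalization 3 and 3. Against the other mutants, all 18 antenna genes were called higher in the pnet2_a triple mutant than in the pnet2_b triple mutant, and 17 were called lower than in the double mutant. LHCB2.3 averaged 354 FPKM in the pnet2_a triple mutant, 214 FPKM in the pnet2_b triple mutant and 662 FPKM in the double mutant. Of 87 kept genes not matched to a nuclear chromosome, 0 rose and 27 fell, and organelle genes were not separated from other unmatched genes among them. All genes without such a match, kept or not, held 509.4 to 518.1 FPKM in pnet2_a triple mutant libraries and 763.0 to 834.3 FPKM in WT libraries.

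**Figure D5:**
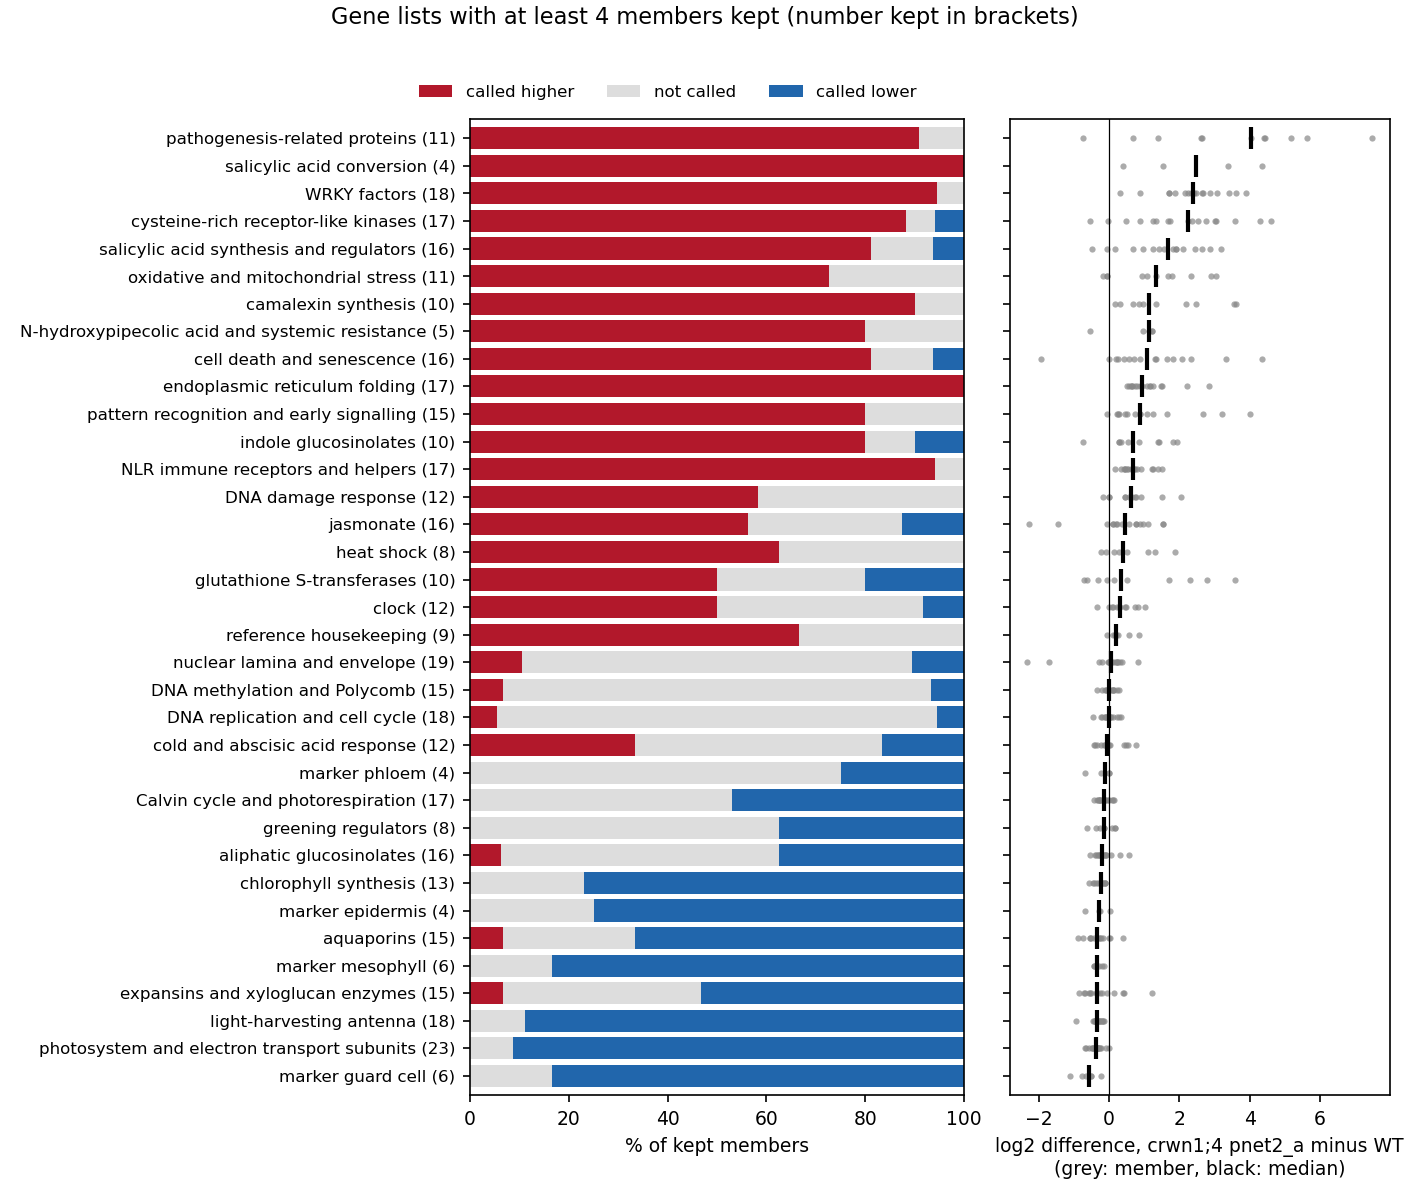
Left, percentage of the kept members of each list called higher (red), not called (grey) and called lower (blue) in crwn1;4 pnet2_a against WT; right, log2 difference of each member (grey) and the list's median (black line), crwn1;4 pnet2_a minus WT. Defence, folding and oxidative stress lists lie to the right of 0 with medians up to 4.04, while antenna, photosystem, aquaporin, wall-loosening and guard cell lists lie to the left with medians down to -0.58.

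Genes of cell expansion and water transport were mostly lower, beside falls in 10.9% of all genes kept. Of 15 expansin and xyloglucan enzyme genes kept, which loosen the growing wall, 8 fell and 1 rose (median -0.34). EXPA8 had 40.6, 33.8 and 24.9 FPKM in the pnet2_a triple mutant, against 56.1, 67.1 and 54.6 FPKM in WT (fall -0.84). The member that rose was XTH24, by 1.23. XTH31, outside that list and among the largest falls of all genes, had 11.9, 8.18 and 9.62 FPKM in the pnet2_a triple mutant, against 34.6, 39.7 and 32.01 FPKM in WT (fall -1.75, limma adjusted p = 1.68e-07). Of 15 aquaporins, 10 fell and 1, RD28, rose (median -0.33). The vacuolar water channel DELTA-TIP had 460.0, 408 and 393 FPKM in the pnet2_a triple mutant, against 708, 873 and 766 FPKM in WT (fall -0.89, SE 0.0822, limma adjusted p = 1.09e-06). All mutant libraries were below all WT libraries for EXPA8, XTH31 and DELTA-TIP, and for XTH31 this was a condition of the choice.

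Other lists moved little or in both directions, and their counts stand beside 25.9% higher and 10.9% lower over all genes kept. The shares of the cold and abscisic acid list lie near these. Of 12 clock genes, 6 rose and PRR7 fell (median 0.30); the evening genes TOC1 and ELF4 rose by 0.73 and 0.83, and the morning genes CCA1 and LHY did not pass the test (0.32 and 0.28). Of 12 cold and abscisic acid genes, 4 rose and 2 fell (median -0.05), but 3 were higher and 4 lower under median-ratio scaling, and 2 higher and 3 lower under quantile normalization. COR15A, which protects chloroplasts in the cold, fell by 0.38, and averaged 26.5 FPKM in the pnet2_a triple mutant, 33.7 FPKM in the pnet2_b triple mutant and 60.1 FPKM in the double mutant. Of 15 genes for DNA methylation and Polycomb repression, MSI1 rose by 0.29, CMT2 fell by 0.34 and 13 did not pass (median 0.011). The MSI1 call was lost without WT replicate 1 or 3 or mutant replicate 1 or 2 (limma adjusted p 0.059 to 0.117), under median-ratio and quantile scaling (0.187 and 0.134, limma adjusted p = 0.147 and 0.296) and in the fit on only the 2 genotypes (0.0532). The CMT2 call was lost without any single library of WT, the double mutant or the pnet2_b triple mutant or without replicate 1 of the pnet2_a triple mutant (limma adjusted p 0.0513 to 0.199), and also with TPM, with no filter, with the replicate block and on only the 2 genotypes (0.0504 to 0.0976). Among 9 genes often used as references, 6 rose, 2 of them also after median-ratio scaling. UBQ10, a polyubiquitin gene, had 1012, 1014 and 999 FPKM in the pnet2_a triple mutant, against 575, 546 and 540.3 FPKM in WT (rise 0.86).

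Markers of leaf cell types moved with the genotype, and their part in the results above was not tested. Among all genes kept, 25.9% rose and 10.9% fell. Of 6 mesophyll markers, all of them photosynthesis genes, 5 fell. Under quantile normalization 0 were lower and 1 was higher, but that scaling cannot show a fall of genes that keep the top ranks. Guard cell markers fell in 5 of 6 cases (median -0.58), and summed to 18.21 to 21.98 FPKM in pnet2_a triple mutant libraries and 34.4 to 36.9 FPKM in WT libraries. KAT1, the potassium channel of guard cells, had 4.697, 3.34 and 2.904 FPKM in the pnet2_a triple mutant, against 7.73, 10.7 and 8.18 FPKM in WT (fall -1.09). Of 4 epidermis markers 3 fell and of 4 phloem markers 1, the sucrose carrier SUC2 (fall -0.68), while 3 xylem and 2 root markers kept did not pass the test. The epidermis calls of KCS10 (without WT replicate 2 or mutant replicate 3) and ATML1 (without WT replicate 2 or 3 or mutant replicate 2) were lost, with limma adjusted p of 0.0514 to 0.0864, and that of ATML1 also on only the 2 genotypes (0.0545). The xylem gene XCP2 was called lower under median-ratio and quantile scaling (-0.571 and -0.639, limma adjusted p = 0.0264 and 0.0174), without WT replicate 1 (-0.667, 0.0213) and without replicate 2 of the pnet2_b triple mutant (-0.472, 0.0484). TTG1, a trichome regulator, rose by 0.43 and the other trichome markers GL2 and MYB23 did not pass the test. The floral genes AG and AP3 were listed at 0 in every pnet2_a triple mutant library and at 0.519 to 1.96 FPKM in WT libraries, short of the rule for genes kept, and SEP1 fell by 1.096 (limma adjusted p = 0.0109; without WT replicate 2, -0.79 and 0.0572). The defining root genes PLT1 and RHD6 and the pollen markers were listed at 0 in all 6 libraries.

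Some genes were listed at 0 in every library of WT or of the pnet2_a triple mutant and not in the other genotype. The smallest value above 0 was 0.301 to 0.318 FPKM in WT libraries and 0.295 to 0.303 FPKM in pnet2_a triple mutant libraries. A listed 0 can therefore stand for a lower level, and genes near 1 FPKM lie close to this floor. In all, 126 genes were listed at 0 in the 3 WT libraries and had at least 1 FPKM in each pnet2_a triple mutant library, and 8 genes showed the reverse. MRD1, which is overlapped by AT1G07887, was listed at 0 in WT and had 19.3, 21.8 and 26.7 FPKM in the pnet2_a triple mutant. It averaged 22.6 FPKM in the pnet2_a triple mutant, 22.3 FPKM in the pnet2_b triple mutant and 19.2 FPKM in the double mutant. In all, 8 of the 126 had at least 1 FPKM in each of the 9 mutant libraries. In the other direction, AT2G05695 was listed at 0 in all 9 mutant libraries and had 6.82, 8.77 and 8.32 FPKM in WT. A single gene of the 126, AT3G01345, was listed at 0 in the 9 libraries of the other genotypes and is described next.

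AT3G01345 (chromosome 3, 129138 to 130749, an uncharacterized protein) had 146, 130.5 and 131 FPKM in the pnet2_a triple mutant and 0 in each library of the pnet2_b triple mutant, the double mutant and WT. The 3 libraries of the mutant lay close together. Of the genes beside it, AT3G01340 on the left and AT3G01350 on the right had signal in each library of both genotypes, while AT3G00995, which lies between AT3G01345 and AT3G01350, was listed at 0 in all 6. AT3G01340 had 46.1, 48.9 and 41.9 FPKM in the pnet2_a triple mutant, against 35.3, 40.4 and 39.3 FPKM in WT (log2 difference 0.25, limma adjusted p = 0.0377). AT3G01350 had 1.35, 1.71 and 1.65 FPKM in the pnet2_a triple mutant, against 0.825, 1.27 and 1.16 FPKM in WT, and did not pass the test (limma adjusted p = 0.18).

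Few genes set the pnet2_a triple mutant apart from all 3 other genotypes. Called and at least 2-fold against each of the pnet2_b triple mutant, the double mutant and WT, 10 genes were highest and 7 lowest in the pnet2_a triple mutant, and these were picked after their values were seen. LSU1, a gene induced by sulfur shortage, had 14.7, 12.8 and 12.7 FPKM in the pnet2_a triple mutant, against 2.42, 0.626 and 1.61 FPKM in WT (rise 2.56, limma adjusted p = 4.01e-06), and averaged 5.195 FPKM in the pnet2_b triple mutant and 1.69 FPKM in the double mutant. SPX3, a gene induced by phosphate shortage, had 1.52, 1.16 and 1.32 FPKM in the pnet2_a triple mutant and was listed at 0 in WT. PRB1, a basic relative of PR1, had 2.96, 3.42 and 5.82 FPKM in the pnet2_a triple mutant, against 0, 0.322 and 0.422 FPKM in WT. Among these 10 were 5 genes from one stretch of chromosome 4, AT4G22475, AT4G22485, AT4G22495, AT4G22505 and AT4G22520. Other genes of that stretch, AT4G22510, AT4G22513 and AT4G22517 among them, were not in the 10. AT4G22505, of the lipid-transfer protein family, had 53.5, 31.8 and 59.8 FPKM in the pnet2_a triple mutant, against 12.3, 14 and 10.2 FPKM in WT, with 19.3 FPKM on average in the pnet2_b triple mutant and 7.47 FPKM in the double mutant. AT4G22475 overlaps AT4G22485 on the opposite strand, as AT4G22495 does AT4G22505 and AT4G22520 does AT4G22530, and without the strand setting of the counting the members of each pair cannot be told apart. VSP1, VSP2 and SEN1 were among the 7 lowest. So was AT2G09785, an antisense RNA of AT2G47110 on chromosome 2, with 26.8, 26.5 and 23.9 FPKM in the pnet2_a triple mutant, against 182, 155 and 119.9 FPKM in WT (fall -2.5), and the same limit of strand holds for it.

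Another run of neighbours lay at the wall-associated kinases on chromosome 1 (7434235 to 7455009), where 6 genes rose at least 2-fold. WAK1, a kinase that binds wall pectin, had 104, 109.7 and 105 FPKM in the pnet2_a triple mutant, against 20.5, 17.02 and 13.04 FPKM in WT (rise 2.6). EXT3, a structural extensin of the wall, had 270.0, 224 and 263 FPKM in the pnet2_a triple mutant, against 32.5, 40.5 and 28.2 FPKM in WT (rise 2.88, limma adjusted p = 1.13e-08). WAK3 had 9.44, 10.9 and 11.3 FPKM in the pnet2_a triple mutant, against 0, 0.326 and 0 FPKM in WT, and WAK2 rose less, by 1.01. Each gene was higher in every mutant library than in any WT library. PR1 itself stood in a run of 5 genes on chromosome 2 (6212448 to 6246279), together with LURP1, which rose by 2.63. A run of 5 genes for TIR-domain proteins stood further along chromosome 1 (27432178 to 27443859). All of these runs were picked after their values were seen.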

How the data were processed

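The authors deposited 1 table with an FPKM value per gene and library. Per the submitters' processing notes it was made with HISAT2 2.0.4 on TAIR10, and the sources used here do not give the annotation release, counting program, strand setting or treatment of reads matching several genes. Low FPKM values showed no fixed step per read, so depth is unknown and no count test or interval was used. Symbols, coordinates and upstream windows come from RefSeq's TAIR10.1 annotation, which matched 32548 of 32833 genes. Differences were tested with limma 3.58.1 (R 4.3.3) on log2(FPKM + 1), without further scaling, in 1 fit over all 12 libraries (4 genotypes, 8 residual degrees of freedom, intensity trend). P-values were adjusted by Benjamini-Hochberg over the 18372 genes, and rose and fell mean an adjusted p below 0.05. The pseudocount of 1 understates changes of low genes. With 3 libraries a genotype, an exact permutation test cannot go below 0.1, so none is given. The 41 gene lists (500 entries, 479 found under the listed name) and the genes compared were chosen with earlier results of these data known. Lists are described by counts over the members kept, since low members drop out. Genes named are the targeted genes and the 12 largest called rises and falls at a mean of at least 5 FPKM without overlap between the genotypes. Among these 12, at most 3 genes without a symbol were taken in each direction, so some larger changes of such genes were passed over. The others are the 5 largest in mean FPKM, genes at 0 in a genotype, up to 4 members per list by adjusted p, and further list members given with their values. The fit was tested on simulated data. Alternatives were pseudocounts of 0.1 and 5, no filter, a filter of 5 FPKM, TPM, median-ratio and quantile scaling, no trend, only the 2 genotypes, a replicate block and each library left out. Tables and figures used Python 3.11.15 with matplotlib 3.10.9.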

Additional observations from a re-analysis of the deposited data

How the results depend on the processing

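Leaving out each of the 12 libraries in turn gave 5622 to 6715 called genes, 3906 to 4721 higher and 1570 to 1994 lower, 1056 to 1109 at least 2-fold higher and 145 to 207 at least 2-fold lower. Scaling moved the split most. Median-ratio scaling gave 3070 lower genes, and quantile normalization gave 3012 higher and 3639 lower genes, 313 of them at least 2-fold lower. Calls shared with the deposited scale were 81.3% of its calls under median-ratio scaling and 73.0% under quantile normalization. The 2-fold counts moved with the pseudocount and the filter by construction, since both change which low genes can pass. At least 2-fold higher genes numbered 442 with a pseudocount of 5 and 704 with a filter of 5 FPKM, and at least 2-fold lower genes 311 with a pseudocount of 0.1, 33 with 5 and 92 with the filter. LHCA4 changed sign, to 0.0208 under quantile normalization (limma adjusted p = 0.658), which gives each rank the same value in every library. The cause of this change was not tested. The fit on only the 2 genotypes called 6050 genes. Replicate numbers did not pair the libraries (correlations of deviations -0.00134, -0.0328 and 0.0517), and with the replicate block 4667 genes were higher and 1966 lower, 6633 in all. Without replicate 3 of the double mutant, which was the highest of its genotype for PR1, 6678 genes were called. Without read counts, differences among genes near 1 FPKM are the least certain.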
